A study of Mus musculus with 18 samples.

Results

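Kit and Flt3 encode the receptors for 2 of the cytokines in which these cells were grown, KIT ligand and FLT3 ligand. Both genes were taken by symbol from the table of RNA reads, where they are 2 of 24072 genes, and 3 of the 14377 chromatin peaks bound by EBF1 or PAX5 carried one of them as the nearest gene, 1 at Kit and 2 at Flt3. RNA and accessible chromatin (ATAC, which marks DNA open to a transposase) had been sequenced in fetal liver cells labelled pro-B, from C57BL6/J mice of 3 genotypes: Ebf1 knockout (Ebf1-KO), Pax5 knockout (Pax5-KO) and wild type (WT). Each genotype had 3 libraries per assay, 18 in all. All 3 genotypes had been expanded on OP9 cells, a mouse stromal line, in medium with interleukin-7 and the ligands of KIT and FLT3, at 10 ng/ml each, so both receptors had their ligand in the medium of every culture. The sources used here do not say whether libraries of 1 genotype came from separate fetuses or cultures, and p-values below measure the spread between libraries, which may be technical.

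KIT and FLT3 are type III receptor tyrosine kinases: binding of a dimeric ligand pairs 2 receptor chains, which then phosphorylate each other and recruit adaptors of the RAS, PI3 kinase and STAT routes. In mouse blood formation KIT marks stem and progenitor cells, mast cells and early B and T cell precursors, whereas FLT3 marks multipotent and lymphoid progenitors and dendritic cell precursors and is shut off as cells commit to the B lineage. EBF1 and PAX5 are the transcription factors that specify and maintain that lineage. The comparisons address how the 2 receptor genes, and the bound sites annotated to them, differ between each knockout and WT. RNA of the other factor was lower too in each knockout, as given below, so the loss of a single factor cannot be told apart here.

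The 3 bound sites lie in introns on chromosome 5 (build mm10), and their sequences, read from GRCm38.p6 on the plus strand, are shown because the comparisons of accessibility below rest on them. Kit is transcribed from the plus strand (75574991 to 75656721, transcript NM_021099) and Flt3 from the minus strand (147330742 to 147400489, NM_010229). Capitals mark 2 short motifs sought on both strands: CCCNNGGG, the inner part of the palindrome that EBF1 binds, and GCNTGAC, a core of the PAX5 site.
Kit, PAX5-only peak, intron 1, 29.8 kb from the start site, chr5:75604631-75604879: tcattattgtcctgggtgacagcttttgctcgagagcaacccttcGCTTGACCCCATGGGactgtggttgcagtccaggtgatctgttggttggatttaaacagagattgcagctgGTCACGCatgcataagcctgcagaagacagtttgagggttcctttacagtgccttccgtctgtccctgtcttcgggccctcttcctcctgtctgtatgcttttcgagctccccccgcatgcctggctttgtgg
Flt3, PAX5-only peak, intron 9, 33.9 kb from the start site, chr5:147366455-147366703: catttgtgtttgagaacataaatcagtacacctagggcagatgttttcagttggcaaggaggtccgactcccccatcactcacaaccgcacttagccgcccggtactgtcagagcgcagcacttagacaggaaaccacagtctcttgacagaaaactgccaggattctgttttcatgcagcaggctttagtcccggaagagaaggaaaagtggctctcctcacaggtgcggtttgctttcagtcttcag
Flt3, EBF1-only peak, intron 9, 37.3 kb from the start site, chr5:147363012-147363282: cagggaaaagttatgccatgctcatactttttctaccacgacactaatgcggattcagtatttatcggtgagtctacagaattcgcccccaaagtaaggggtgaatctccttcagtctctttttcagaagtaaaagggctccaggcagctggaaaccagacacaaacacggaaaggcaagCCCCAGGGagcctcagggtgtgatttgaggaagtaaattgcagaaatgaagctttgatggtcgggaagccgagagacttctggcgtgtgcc

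The Kit site held GCNTGAC in 2 places. The first, on the plus strand at chr5:75604676-75604682, adjoined a CCCNNGGG at chr5:75604683-75604690 without overlap, and the second, on the minus strand, lay at chr5:75604747-75604753. Of the 5033 PAX5-only peaks, all of the same length, 21.2% held GCNTGAC and 8.11% held CCCNNGGG. The PAX5-only site of Flt3 held neither, and the EBF1-only site of Flt3 held 1 CCCNNGGG, at chr5:147363192-147363199, as did 57.8% of the 7810 EBF1-only peaks scanned, which also share 1 length. The full EBF1 palindrome, with 1 more base on either side, was in none of the 3 sites and in 27.2% of EBF1-only peaks. The RUNX motif TGTGGT was in both PAX5-only sites and in 37% of their class, the PU.1 motif GAGGAAGT was in the EBF1-only site and in 5.04% of its class, and the GATA motif AGATAA was in none of the 3, against 10.6% of all bound peaks. These are matches of letters in these windows.

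From the value of 1 read, mapped reads came to 27.3 to 89.1 M (M, 1e6) per RNA library, of which 15.6 to 63.6 M lay in exons, and tags to 15.3 to 38.6 M per ATAC library. Ebf1 RNA was lower in Ebf1-KO (1465 ± 131 reads per 10 M mapped reads) than in WT (3969 ± 634, SD, n = 3 each). Pax5 RNA was lower in Pax5-KO (109 ± 17.5) than in WT (1521 ± 179), so transcript of both targeted genes was still counted. Ebf1 RNA was also low in Pax5-KO (1515 ± 170), with no call between the knockouts (limma adjusted p = 0.870). Pax5 RNA was lowest in Ebf1-KO (13.1 ± 3.96). These levels set both knockouts apart from WT, and Pax5 RNA also differed between the knockouts (limma adjusted p = 1.74e-08). Neither targeted gene was called lower in its own knockout than in the other, so these levels alone do not assign the labels. Summed over 14 pro-B markers, the deleted Ebf1 and Pax5 among them, the level was 4216 to 4270 in Ebf1-KO, 14581 to 21893 in Pax5-KO and 44421 to 52346 in WT. Of the 14, 12 fell in Ebf1-KO over WT (85.7%, against 14.4% of all genes). In Pax5-KO over WT 13 fell (92.9%, against 11.9% of all genes). The knockouts thus carried the label pro-B with most of these markers lower. RNA values below are exon reads per 10 M mapped reads unless given per kb, and log2 fold changes are on log2(value + 1), less the median of all 12839 genes tested, which was 0.31 for Ebf1-KO over WT, 0.28 for Pax5-KO over WT and 0.05 for Ebf1-KO over Pax5-KO.

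Kit RNA moved in opposite directions in the 2 knockouts. It was 1651, 1167 and 1209 reads in Ebf1-KO libraries 1 to 3, 151, 93.2 and 99.2 in those of Pax5-KO, and 327, 274 and 245 in WT. No library of one genotype overlapped another, and library 1 was the highest of its genotype in each. Ebf1-KO averaged 1342 ± 268, 4.76-fold the WT mean of 282 ± 41.4, and the log2 fold change was 1.93 (SE 0.20, limma adjusted p = 1.06e-07). Pax5-KO averaged 114 ± 31.6, 0.405-fold the WT mean, and the log2 fold change was -1.60 (SE 0.20, limma adjusted p = 5.11e-05). Between the knockouts the ratio of means was 11.7 (log2 fold change of Ebf1-KO over Pax5-KO 3.51, SE 0.20; limma adjusted p = 1.06e-09).

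Flt3 RNA was high in both knockouts and nearly off in WT. It was 2283, 2224 and 2576 reads in Ebf1-KO libraries 1 to 3, 933, 865 and 953 in those of Pax5-KO, and 9.25, 9.16 and 6.98 in WT, where the libraries held 33, 26 and 44 reads of the gene. The 3 genotypes did not overlap, and the spread within each was small beside the distance between them. Ebf1-KO averaged 2361 ± 189, against 8.46 ± 1.29 in WT, a ratio of 279 and a log2 fold change of 7.66 (SE 0.14, limma adjusted p = 6.16e-15). Pax5-KO averaged 917 ± 46.3, a ratio to WT of 108 and a log2 fold change of 6.33 (SE 0.14, limma adjusted p = 9.54e-14). The ratio between the knockouts was 2.57 (log2 fold change of Ebf1-KO over Pax5-KO 1.32, SE 0.14; limma adjusted p = 1.61e-06), so Flt3 fell in the order Ebf1-KO, Pax5-KO, WT and Kit in the order Ebf1-KO, WT, Pax5-KO, with each step past the test.

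Both receptors were called in all 3 comparisons, and so were many other genes. Both knockouts are set against the same WT libraries. In Ebf1-KO over WT 55.3% of the genes tested were called, 40.8% as higher, like both receptors, and 14.4% as lower. In Pax5-KO over WT 46.5% were called, 34.7% as higher, like Flt3, and 11.9% as lower, like Kit. In Ebf1-KO over Pax5-KO 30.9% were called, 17.5% as higher, like both receptors, and 13.3% as lower. The share of all genes that rise depends on the scaling: with TMM, which centres most genes on no change, rises made up 51.6% of the calls in Ebf1-KO over WT, against 73.9% with the scaling of the authors, and 51.9% in Pax5-KO over WT, against 74.5%, while Kit and Flt3 kept their directions and calls under every scaling tried. Flt3 had a larger log2 fold change than all but 54 genes in Ebf1-KO over WT and all but 68 in Pax5-KO over WT. For Kit, 1145 genes had a larger one in Ebf1-KO over WT, and 669 had a lower one in Pax5-KO over WT. In bulk RNA, more cells that express a gene and more RNA per cell cannot be told apart. The authors' deposited table gave log2 fold changes over WT of 7.88 in Ebf1-KO and 6.56 in Pax5-KO for Flt3, and of 1.93 in Ebf1-KO and -1.55 in Pax5-KO for Kit.

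**Figure D1:**
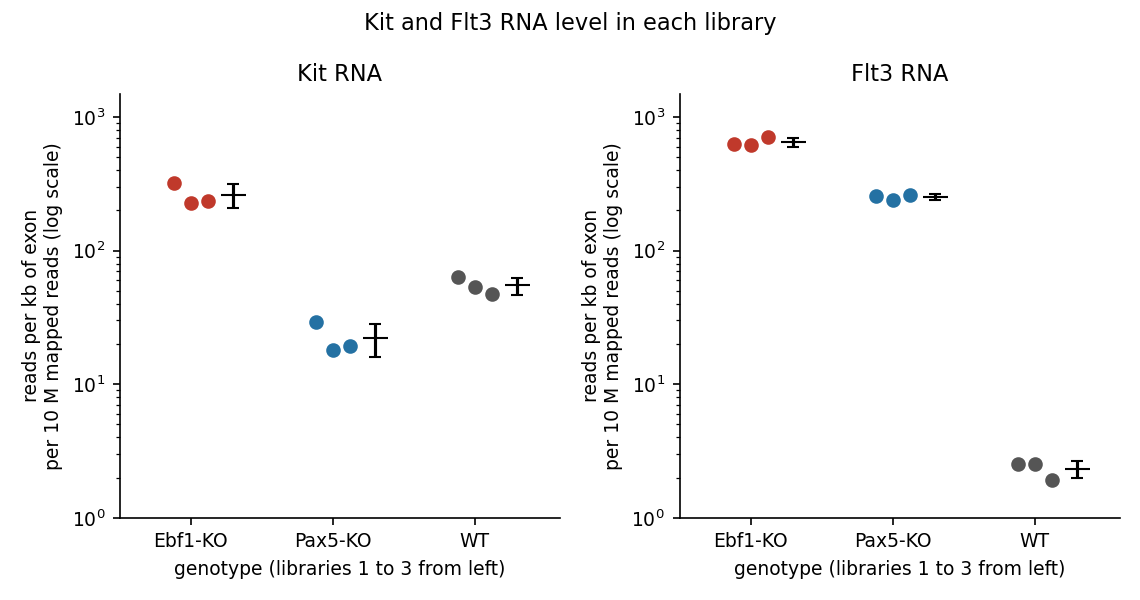
Reads per kb of exon per 10 M mapped reads (log scale) for Kit (left) and Flt3 (right) in each library of Ebf1-KO, Pax5-KO and WT, with the mean and SD of 3 libraries at the right of each group. Kit is at 227 to 321 in Ebf1-KO, 18.1 to 29.3 in Pax5-KO and 47.7 to 63.6 in WT, and Flt3 at 613 to 710 in Ebf1-KO, 238 to 263 in Pax5-KO and 1.92 to 2.55 in WT.

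Divided by exon length (5142 bp for Kit, 3630 bp for Flt3), the 2 receptors can be set side by side. Kit averaged 261 ± 52.1 reads per kb in Ebf1-KO, 22.2 ± 6.15 in Pax5-KO and 54.9 ± 8.05 in WT. Flt3 averaged 650 ± 52.0 reads per kb in Ebf1-KO, 253 ± 12.8 in Pax5-KO and 2.33 ± 0.355 in WT. Among genes tested, the mean Kit level per kb exceeded that of 85.3% in Ebf1-KO, 33.0% in Pax5-KO and 56.0% in WT, and the Flt3 level that of 95.3% in Ebf1-KO, 85.1% in Pax5-KO and 13.9% in WT. Kit was thus the more abundant receptor transcript in WT, and Flt3 in both knockouts.

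The ratio of Flt3 to Kit per kb was 1.96, 2.70 and 3.02 in Ebf1-KO libraries 1 to 3, 8.77, 13.1 and 13.6 in those of Pax5-KO, and 0.0401, 0.0473 and 0.0403 in WT. It was above 1 in all 6 knockout libraries and below 1 in all 3 WT libraries, and the genotypes did not overlap. The mean log2 ratio was 1.33 ± 0.32 in Ebf1-KO, 3.54 ± 0.35 in Pax5-KO and -4.56 ± 0.14 in WT. It differed by 5.89 between Ebf1-KO and WT, by 8.10 between Pax5-KO and WT and by -2.21 between Ebf1-KO and Pax5-KO, and the exact two-sided permutation p was 0.10 in each, the smallest that 3 against 3 libraries can give.

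**Figure D2:**
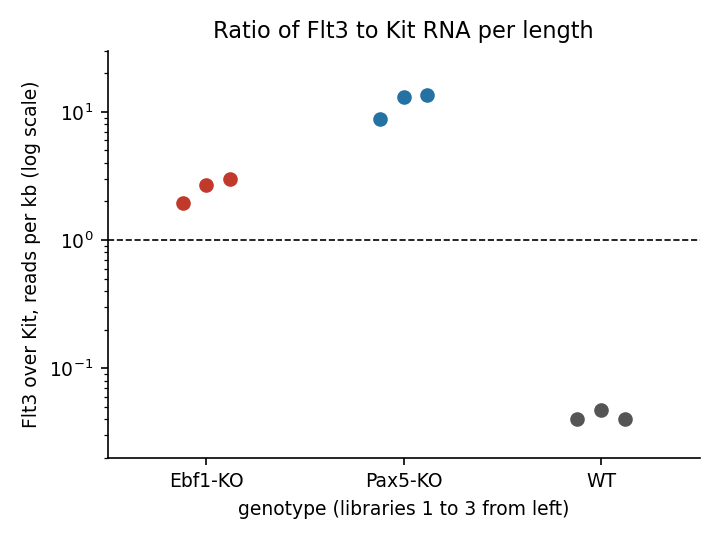
Ratio of Flt3 to Kit reads per kb of exon (log scale; dashed line, equal levels) in each library of Ebf1-KO, Pax5-KO and WT. The Pax5-KO libraries are highest, at 8.77 to 13.6, the Ebf1-KO libraries are at 1.96 to 3.02, and the WT libraries at 0.0401 to 0.0473.

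Accessibility at the PAX5-only site of Flt3 was higher in Ebf1-KO. It was 34.3, 35.1 and 32.6 tags per 10 M in Ebf1-KO libraries 1 to 3, 20.1, 17.8 and 14.8 in those of Pax5-KO, and 18.3, 14.0 and 16.3 in WT. Every Ebf1-KO library lay above the others, and Pax5-KO overlapped WT. The log2 fold change of Ebf1-KO over WT was 1.03 (SE 0.26, limma adjusted p = 3.75e-04), and against Pax5-KO it was 0.93 (SE 0.26, limma adjusted p = 0.00480). Pax5-KO over WT gave 0.11 (SE 0.26, limma adjusted p = 0.749) with the scaling of the authors but 0.99 (limma adjusted p = 3.41e-05) with TMM, so the Pax5-KO call at this site depends on the scaling. It was stronger in 4 of 18 alternatives, TMM among them, with a range of 0.01 to 1.28. The median log2 fold change over the 14365 peaks tested was -0.78 for Ebf1-KO over WT, -0.75 for Pax5-KO over WT and -0.02 for Ebf1-KO over Pax5-KO. Unlike those of RNA, ATAC log2 fold changes are given without subtracting this median unless stated. Less the median, the differences from WT at this site were 1.81 in Ebf1-KO and 0.85 in Pax5-KO. Tags in all bound peaks were 0.930 to 1.11% of the library in Ebf1-KO, 0.825 to 1.02% in Pax5-KO and 1.52 to 2.31% in WT, and whether that difference bears on single sites was not tested.

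Accessibility at the EBF1-only site of Flt3 was 13.6, 16.9 and 20.5 tags per 10 M in Ebf1-KO libraries 1 to 3, 18, 11.9 and 11.7 in those of Pax5-KO, and 30.7, 19.4 and 27.7 in WT. The Pax5-KO libraries lay below all WT libraries, and Ebf1-KO 3 lay above WT 2. Pax5-KO over WT was called lower (log2 fold change -0.86, SE 0.27, limma adjusted p = 0.00449), but with TMM the value was 0.04 (limma adjusted p = 0.906). Ebf1-KO over WT was -0.57 (SE 0.27, limma adjusted p = 0.0600), 0.29 with TMM, -0.71 without Ebf1-KO 3 (limma adjusted p = 0.0455) and -0.76 without WT 2 (limma adjusted p = 0.0100). Ebf1-KO over Pax5-KO was 0.28 (SE 0.27, limma adjusted p = 0.498). Relative to the median of all peaks the differences from WT were 0.21 in Ebf1-KO and -0.11 in Pax5-KO.

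The Kit site was barely open in any genotype. It had 1.56, 0.300 and 3.20 tags per 10 M in Ebf1-KO libraries 1 to 3, 2.82, 1.06 and 2.17 in those of Pax5-KO, and 5.23, 3.13 and 4.40 in WT, which rest on 4, 1 and 10, 8, 4 and 5, and 8, 11 and 17 tags. Pax5-KO lay below all WT libraries, and Ebf1-KO 3 lay just above WT 2. Ebf1-KO over WT was called lower (log2 fold change -1.10, SE 0.39, limma adjusted p = 0.0112), a call that ended without Ebf1-KO 2 (-0.66, limma adjusted p = 0.185) and with TMM (-0.47, limma adjusted p = 0.341). Pax5-KO over WT was -0.83 (SE 0.39, limma adjusted p = 0.0628) and passed without Pax5-KO 1 (-1.02, limma adjusted p = 0.0401) or without WT 2 (-0.99, limma adjusted p = 0.0390). Ebf1-KO over Pax5-KO was -0.28 (SE 0.39, limma adjusted p = 0.674). Less the median of all peaks, the differences from WT were -0.32 in Ebf1-KO and -0.08 in Pax5-KO, both smaller than their SE.

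With the scaling of the authors, 2 of the 3 sites passed in Ebf1-KO over WT, 1 of 3 in Pax5-KO over WT and 1 of 3 in Ebf1-KO over Pax5-KO, where 54.4%, 53.7% and 21.7% of all peaks passed in either direction. Rises passed at 3.28% of peaks in Ebf1-KO over WT, 2.11% in Pax5-KO over WT and 9.06% in Ebf1-KO over Pax5-KO, and falls at 51.1%, 51.5% and 12.6%. With TMM 40.6% of the calls in Ebf1-KO over WT were rises, against 6.03%, and 39.3% in Pax5-KO over WT, against 3.93%. Binding score and accessibility stood in opposite order at the 2 PAX5-only sites. The score is the authors' own from ChIP, used here to rank peaks within their list. The Kit site ranked 37th of 5033 by score (642), and its mean accessibility exceeded that of 34.6% of the class in Ebf1-KO, 42.6% in Pax5-KO and 29.9% in WT. The Flt3 site ranked 4980th (29.1), and its accessibility exceeded that of 98.0% in Ebf1-KO, 96.9% in Pax5-KO and 76.4% in WT. The EBF1-only site of Flt3 ranked 2329th of 7815 (16.3) and exceeded 88.2%, 87.4% and 88.8% of its class in Ebf1-KO, Pax5-KO and WT.

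**Figure D3:**
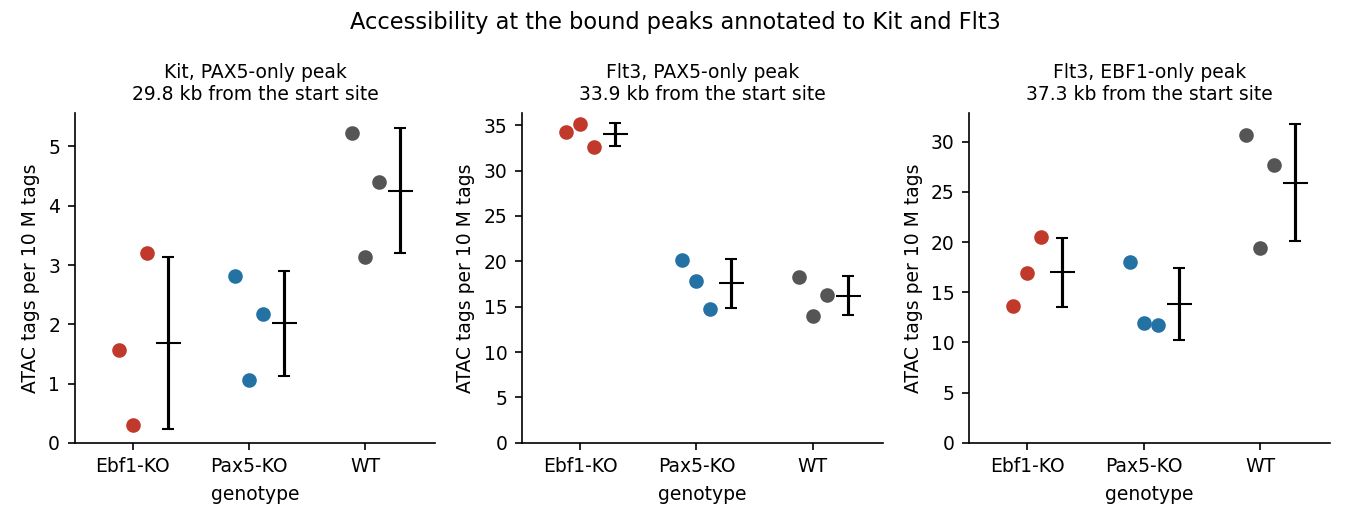
ATAC tags per 10 M tags (linear axis from 0, a scale of its own in each panel) at the PAX5-only site of Kit, the PAX5-only site of Flt3 and the EBF1-only site of Flt3, in each library of Ebf1-KO, Pax5-KO and WT, with mean and SD of 3 libraries. At the PAX5-only site of Flt3 the Ebf1-KO libraries, at 32.6 to 35.1, are clear of all others, at 14.0 to 20.1, and at the other 2 sites Ebf1-KO and WT overlap.

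Around Flt3, 2 of the 8 genes tested with a start within 500 kb also rose in both knockouts. Of all genes tested, 40.8% rose in Ebf1-KO over WT and 34.7% in Pax5-KO over WT. D5Ertd605e, a non-coding RNA gene on the opposite strand whose start lies 18.1 kb from that of Flt3, was at 106 ± 11.1 in Ebf1-KO, 71.1 ± 17.3 in Pax5-KO and 6.49 ± 1.53 in WT (log2 fold change over WT 3.55 in Ebf1-KO, limma adjusted p = 7.17e-10, and 2.98 in Pax5-KO, limma adjusted p = 8.19e-09). Pan3, 30.1 kb away, which encodes a subunit of the poly(A) deadenylase, was at 3139 ± 258 in Ebf1-KO, 2076 ± 153 in Pax5-KO and 1107 ± 20.8 in WT (log2 fold change over WT 1.19 in Ebf1-KO, limma adjusted p = 5.79e-08, and 0.62 in Pax5-KO, limma adjusted p = 2.42e-05). Ebf1-KO exceeded Pax5-KO at Pan3 (0.55, limma adjusted p = 0.00140) and missed the threshold at D5Ertd605e (0.55, limma adjusted p = 0.0536), which passed with TMM (limma adjusted p = 0.0127) and in the fit blocked by replicate number (limma adjusted p = 0.00492).

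Of the 15 genes with a start within 500 kb of that of Flt3, 8 passed the filter on low reads. The other 6 tested were Polr1d, Lnx2, Mtif3, Gtf3a, Pomp and Slc46a3, at 323 to 494 kb, with log2 fold changes over WT of -0.34 to 0.22 in Ebf1-KO, none called, and of -0.43 to 0.43 in Pax5-KO, where Mtif3 and Gtf3a passed. These 2 genes overlap on opposite strands, so their reads cannot be told apart, and with the replicate block both passed in Ebf1-KO too. Urad, Cdx2, Pdx1, Gsx1 and Flt1, in between or beyond, had at most 0.620 reads per 10 M in any genotype mean. Around Kit, 1 of 5 genes was tested: Pdgfra, at 3.62 ± 2.89 in Ebf1-KO, 2.73 ± 2.66 in Pax5-KO and 4.56 ± 6.45 in WT, which was not called in any comparison, and the neighbouring receptor gene Kdr was at 0 in all but 1 library.

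Counts of called peaks around the receptors were set against those of all bound peaks, of which 51.1% fell and 3.28% rose in Ebf1-KO over WT, and 51.5% fell and 2.11% rose in Pax5-KO over WT. Of the 12 peaks within 500 kb of the start of Flt3, the PAX5-only site described above was the 1 that rose in Ebf1-KO over WT, 3 fell and 8 did not pass. In Pax5-KO over WT 1 rose, 6 fell and 5 did not pass, and the 1 was an EBF1-only peak in intron 15 of Flt3 (log2 fold change 0.76, SE 0.34, limma adjusted p = 0.0478). Of the 5 peaks around Kit none rose over WT in either knockout, 2 fell in Ebf1-KO and 1 fell in Pax5-KO. All these calls use the scaling of the authors.

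**Figure D4:**
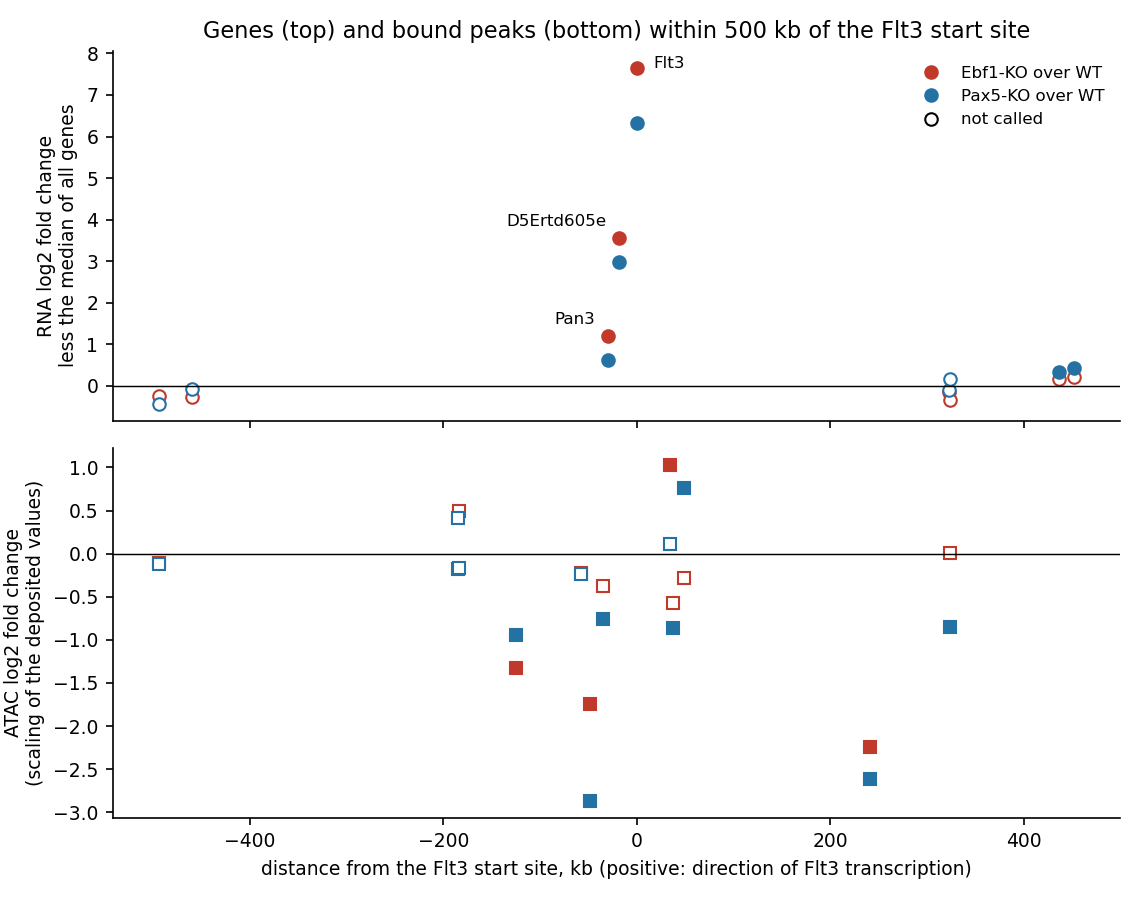
Log2 fold change over WT of the genes tested (top, circles at their start sites, RNA less the median of all genes) and of the bound peaks (bottom, squares, ATAC with the scaling of the authors) within 500 kb of the Flt3 start site, in Ebf1-KO (red) and Pax5-KO (blue), by distance in kb along the direction of Flt3 transcription. Filled symbols passed an adjusted p of 0.05. Flt3, D5Ertd605e and Pan3 stand above the other genes, which lie between -0.43 and 0.43, and most peaks lie at or below 0.

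Among the other type III receptors, Pdgfrb, a receptor for platelet-derived growth factor, was at 373 ± 65.0 in Ebf1-KO, 25.4 ± 3.88 in Pax5-KO and 0.523 ± 0.772 in WT, where the libraries held 0, 4 and 1 reads, and was higher in both knockouts (limma adjusted p = 3.23e-12 in Ebf1-KO and 9.76e-09 in Pax5-KO). Csf1r, the macrophage receptor, was at 3.42 ± 1.30 in Ebf1-KO, 3.63 ± 0.686 in Pax5-KO and 1.21 ± 0.742 in WT, and its call over WT in Ebf1-KO (limma adjusted p = 0.0139) was lost with TMM. Its call in Pax5-KO (limma adjusted p = 0.0100) was lost with edgeR on recovered reads. Of the 5 genes of this class, Kit and Flt3 included, 4 rose in Ebf1-KO over WT (3 with TMM), where 40.8% of all genes rose, and 3 rose and 1 fell in Pax5-KO over WT, where 34.7% rose and 11.9% fell.

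Of the ligands, Flt3l, which encodes FLT3 ligand, was at 12.9, 23.1 and 22.6 in Ebf1-KO libraries, 9.12, 8.87 and 13.0 in those of Pax5-KO, and 1.68, 2.82 and 3.81 in WT. Ebf1-KO and Pax5-KO overlapped in single libraries, and both lay above WT. It rose over WT in Ebf1-KO (log2 fold change 2.14, limma adjusted p = 3.19e-06) and in Pax5-KO (1.33, limma adjusted p = 3.04e-04), at low levels in all. Kitl, the gene of KIT ligand, was at 0 in 2 of 3 Ebf1-KO libraries, 1 Pax5-KO library and 1 WT library and at most 2.93 elsewhere, too low to test, as was Il34, a ligand of the macrophage receptor. Csf1, the gene of its other ligand, fell to 26.2 ± 19.5 in Ebf1-KO and 32.8 ± 2.79 in Pax5-KO, against 252 ± 95.1 in WT (log2 fold change -3.69 in Ebf1-KO, limma adjusted p = 1.35e-06, and -3.12 in Pax5-KO, limma adjusted p = 1.29e-05). The summed level of 10 markers of the OP9 stroma, Kitl among them, was 19.0 to 110 in Ebf1-KO, 51.6 to 212 in Pax5-KO and 139 to 312 in WT, with Dcn at 0 throughout. Its part in the ligand values was not tested.

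Downstream of the receptors, adaptors and effectors were called at shares near those of all genes. Of 31 tested among 32, 14 rose and 4 fell in Ebf1-KO over WT, 45.2% and 12.9%, against 40.8% and 14.4% of all genes, and the counts were 11 and 7 with TMM and 18 and 4 with the replicate block. In Pax5-KO over WT 10 rose and 3 fell, 32.3% and 9.68%, against 34.7% and 11.9% of all genes, and the counts were 8 and 8 with TMM and 17 and 5 with the block. In Ebf1-KO over Pax5-KO 7 rose and 4 fell, 22.6% and 12.9%, against 17.5% and 13.3% of all genes, and the counts were 10 and 5 with TMM and 11 and 5 with the block. Of all 12839 genes tested, 3851 rose and 3609 fell in Ebf1-KO over WT with TMM, and 6549 and 2234 with the block. In Pax5-KO over WT the numbers were 3324 and 3075 with TMM, and 6111 and 1962 with the block. In Ebf1-KO over Pax5-KO they were 2629 and 2522 with TMM, and 3188 and 2434 with the block. The TMM and block counts of every list are to be read against these. The median log2 fold change over WT, on the scale where that of all genes is 0, was -0.03 for Ebf1-KO and 0.00 for Pax5-KO.

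Pik3r1, the regulatory subunit of PI3 kinase that binds activated KIT, was at 3119 ± 208 in Ebf1-KO, 3698 ± 283 in Pax5-KO and 826 ± 141 in WT (log2 fold change over WT 1.62 in Ebf1-KO, limma adjusted p = 2.05e-08, and 1.89 in Pax5-KO, limma adjusted p = 7.93e-09). Gab1, a docking adaptor, fell to 0.471 ± 0.436 in Ebf1-KO and 2.71 ± 0.366 in Pax5-KO, against 101 ± 20.4 in WT. The tyrosine kinases Fes and Fer went opposite ways. Fes was at 130 ± 8.91 in Ebf1-KO, 5.14 ± 1.43 in Pax5-KO and 0.650 ± 0.413 in WT, and its close relative Fer at 0.390 ± 0.414 in Ebf1-KO, 3.18 ± 1.28 in Pax5-KO and 30.3 ± 9.09 in WT. All 4 were called in both knockouts over WT, with limma adjusted p of at most 1.68e-05.

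Brakes on the receptors (phosphatases, ubiquitin ligases, SOCS, SLAP and DOK proteins) rose more often than they fell. Of 14, all tested, 10 rose and 1 fell in each knockout over WT, 71.4% rising and 7.14% falling, against 40.8% and 14.4% of all genes in Ebf1-KO over WT, and against 34.7% and 11.9% in the other comparison with WT, with a median log2 fold change of 0.43 in Ebf1-KO and 0.50 in Pax5-KO. With TMM 8 rose and 4 fell in Ebf1-KO and 8 rose and 1 fell in Pax5-KO, and with the block 10 rose and 2 fell in Ebf1-KO. In Ebf1-KO over Pax5-KO 5 rose and 3 fell, 35.7% and 21.4%, against 17.5% and 13.3% of all genes, and the counts were 5 and 5 with TMM and 7 and 5 with the block. Dok2, an adaptor that damps tyrosine kinase signals in blood cells, was at 214 ± 27.4 in Ebf1-KO, 101 ± 41.6 in Pax5-KO and 3.17 ± 0.475 in WT (log2 fold change over WT 5.38 in Ebf1-KO, limma adjusted p = 2.73e-11, and 4.27 in Pax5-KO, limma adjusted p = 6.33e-10).

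Sla2, a SLAP-family adaptor, was at 909 ± 344 in Ebf1-KO, 606 ± 91.6 in Pax5-KO and 188 ± 19.0 in WT. Ptpn1, a tyrosine phosphatase that acts on FLT3, was at 859 ± 98.4 in Ebf1-KO, 510 ± 98.1 in Pax5-KO and 236 ± 4.76 in WT. Socs1 was at 23.0 ± 11.3 in Ebf1-KO, 20.6 ± 6.40 in Pax5-KO and 2.59 ± 0.414 in WT. These 3 rose in both knockouts over WT, with limma adjusted p of at most 2.62e-05. Cblb, a ubiquitin ligase, was at 827 ± 88.6 in Ebf1-KO, 427 ± 69.4 in Pax5-KO and 791 ± 40 in WT, and was the brake that fell in Pax5-KO over WT (log2 fold change -1.18, limma adjusted p = 1.22e-04), with no call in Ebf1-KO over WT (limma adjusted p = 0.752). Ptpn6, the phosphatase SHP-1, a brake on KIT, was at 628 ± 96.8 in Ebf1-KO, 327 ± 50.1 in Pax5-KO and 318 ± 92.5 in WT. Both were higher in Ebf1-KO than in Pax5-KO (log2 fold change 0.91, limma adjusted p = 7.69e-05 for Cblb and 0.89, limma adjusted p = 0.00211 for Ptpn6), whereas Dok1 was lower (17.8 ± 3.23 in Ebf1-KO, 43.9 ± 8.51 in Pax5-KO and 27.3 ± 5.96 in WT, log2 fold change -1.30, limma adjusted p = 4.49e-04).

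Among 18 transcription factors known to bind or control Kit or Flt3, 16 were tested, the deleted Ebf1 and Pax5 among them. In Ebf1-KO over WT 9 rose and 2 fell, 56.2% and 12.5%, against 40.8% and 14.4% of all genes, and the counts were 8 and 5 with TMM and 9 and 4 with the block. With the scaling of the authors the 2 that fell were Ebf1 and Pax5 themselves. In Pax5-KO over WT 8 rose and 3 fell, 50.0% and 18.8%, against 34.7% and 11.9% of all genes, and the counts were 7 and 6 with TMM and 9 and 3 with the block. With the scaling of the authors the 3 that fell were Ebf1, Pax5 and Mitf, which was at 1.43 ± 0.958 in Pax5-KO and 3.41 ± 0.485 in WT. Hoxa9, an activator of Flt3 in mouse progenitors, was at 566 ± 60.3 in Ebf1-KO, 97.5 ± 11.1 in Pax5-KO and 0.439 ± 0.422 in WT. Its partner Meis1 was at 283 ± 9.90 in Ebf1-KO, 38.9 ± 7.07 in Pax5-KO and 0.393 ± 0.359 in WT, and both rose in both knockouts over WT and in Ebf1-KO over Pax5-KO (limma adjusted p of at most 2.33e-07). Cebpa, a myeloid factor, was at 31.8 ± 5.24 in Ebf1-KO, 0.861 ± 0.537 in Pax5-KO and 0.117 ± 0.203 in WT. Lmo2, which bridges the GATA and SCL factors that act on Kit, was at 199 ± 70.9 in Ebf1-KO, 359 ± 19.9 in Pax5-KO and 78.3 ± 17.1 in WT, higher in both knockouts. Gata1 and Gata2, themselves activators of Kit in mast and progenitor cells, were too low to test, at 1.14 or less in every genotype mean.

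**Figure D5:**
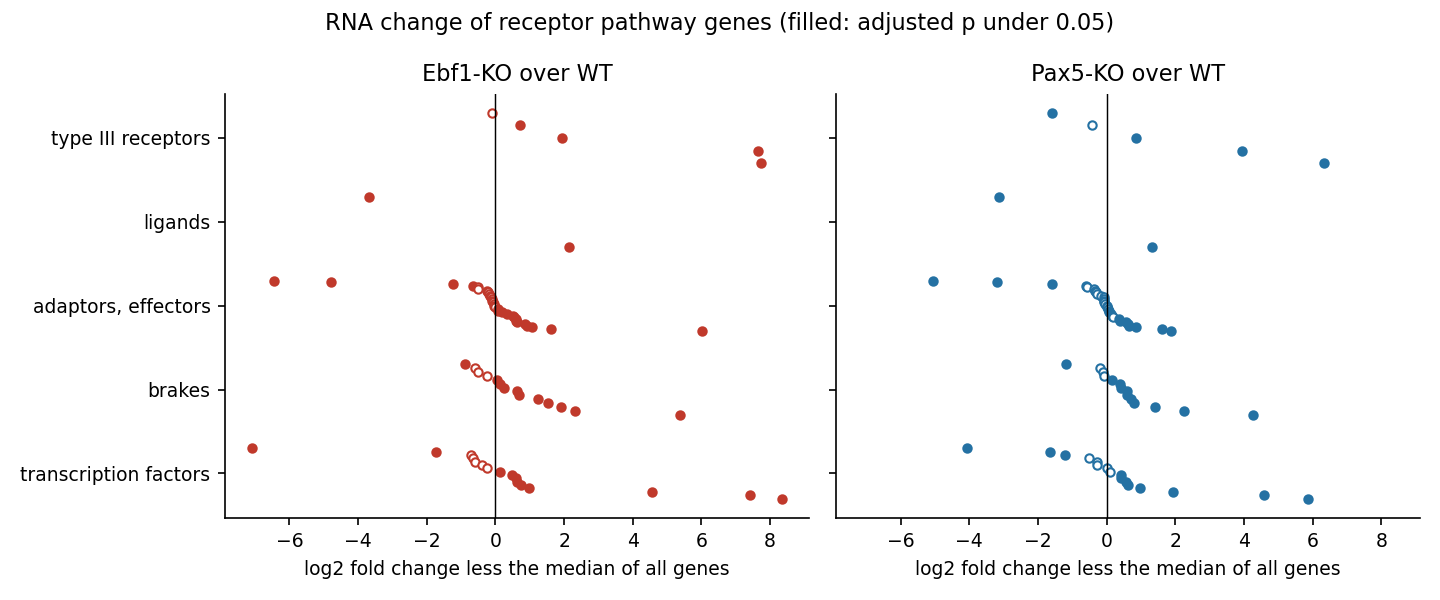
RNA log2 fold change over WT, less the median of all genes, of each tested gene in 5 lists of the receptor pathway, in Ebf1-KO (left) and Pax5-KO (right), with filled points for an adjusted p under 0.05. Adaptors and effectors spread to both sides of 0, with medians of -0.03 in Ebf1-KO and 0.00 in Pax5-KO. Those of brakes are 0.43 and 0.50. With the scaling of the authors, 45.2% of adaptors and effectors and 71.4% of brakes rise in Ebf1-KO, against 40.8% of all genes. In Pax5-KO the shares are 32.3% and 71.4%, against 34.7% of all genes.

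The genes whose RNA was most like that of each receptor were named by Pearson's r over the 9 libraries on log2(value + 1). The 9 points are 3 genotypes of 3 libraries and share their scaling, so r mostly reflects the order and spacing of 3 means. Like Kit were Pecam1 (r = 0.990), an adhesion molecule of leukocytes and endothelium, Shank1 (0.985), a synaptic scaffold, Lpar1 (0.982), a lysophosphatidic acid receptor, Igf2r (0.980), the mannose 6-phosphate and IGF2 receptor, and Cep95 (0.980), a centrosomal protein. Igf2r was at 2996 ± 67.2 in Ebf1-KO, 115 ± 3.61 in Pax5-KO and 475 ± 71.7 in WT, a wider range than that of Kit, and Lpar1 at 235 ± 20.9 in Ebf1-KO, 16.3 ± 1.83 in Pax5-KO and 37.3 ± 2.44 in WT. Cep95 had a much narrower range than Kit, at 316 ± 10.2 in Ebf1-KO, 196 ± 2.54 in Pax5-KO and 239 ± 7.95 in WT. Like Flt3 were Ccr9 (0.999), a chemokine receptor of thymus-seeding and gut-homing cells, Adgrg5 (0.999), an adhesion G protein-coupled receptor, Hoxa7 (0.998), Mta3 (0.998), a subunit of a histone deacetylase complex, and Atp8b4 (0.998), a lipid flippase. Ccr9 was at 10593 ± 951 in Ebf1-KO, 3839 ± 315 in Pax5-KO and 17.4 ± 3.25 in WT, and Adgrg5 and Hoxa7 were at 0 in all 3 WT libraries.

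Markers of other cell types that carry these receptors were measured beside them. Of 12 mast cell and basophil markers none passed the filter on low reads, the sum was 2.56 to 4.40 in Ebf1-KO, 1.27 to 1.99 in Pax5-KO and 0 to 0.352 in WT, and the proteases Mcpt1, Mcpt2, Mcpt4, Tpsb2, Tpsab1 and Cma1 and the IgE receptor genes Fcer1a and Ms4a2 were at 0 in all 9 libraries. The 10 markers of multipotent progenitors summed to 3406 to 3807 in Ebf1-KO, 565 to 828 in Pax5-KO and 339 to 480 in WT, with Procr at 0 throughout. Cd34, a stem and progenitor cell surface protein, had the most reads of that list in Ebf1-KO, at 2156 ± 98.1, against 29.2 ± 6.19 in Pax5-KO and 0.779 ± 0.0695 in WT, and Hoxa9 and Meis1, given above, are also on it. The 8 dendritic cell markers summed to 10232 to 12062 in Ebf1-KO, 3937 to 4601 in Pax5-KO and 85.5 to 111 in WT, but most of the sum in both knockouts was Ccr9, which other cells carry too. Of the others, Siglech, a plasmacytoid cell receptor, was at 30.3 ± 5.57 in Ebf1-KO, 83.1 ± 7.46 in Pax5-KO and 0.146 ± 0.140 in WT, lower in Ebf1-KO than in Pax5-KO, and Zbtb46, Batf3 and Clec9a were at 3.89 or less in every genotype mean.

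The 8 early T cell markers summed to 1304 to 1968 in Ebf1-KO, 2509 to 3230 in Pax5-KO and 52.2 to 91.6 in WT, and the order of the sum is not that of its members. Most of it in Pax5-KO was Cd28 and Il2ra. Cd28 was at 1102 ± 257 in Ebf1-KO, 1546 ± 252 in Pax5-KO and 8.50 ± 4.48 in WT, and Il2ra at 164 ± 73.6 in Ebf1-KO, 1403 ± 144 in Pax5-KO and 61.2 ± 16.6 in WT. The T-lineage factors were higher in Ebf1-KO, with Bcl11b at 173 ± 8.14 in Ebf1-KO, 0.224 ± 0.389 in Pax5-KO and 0.106 ± 0.183 in WT, and Tcf7 at 117 ± 6.23 in Ebf1-KO, 12.4 ± 0.872 in Pax5-KO and 3.09 ± 0.620 in WT. The 8 NK and innate lymphoid markers summed to 1395 to 1449 in Ebf1-KO, 152 to 235 in Pax5-KO and 12.3 to 15.2 in WT. The 8 erythroid and megakaryocyte markers summed to 41.8 to 55.4 in Ebf1-KO, 10.8 to 16.5 in Pax5-KO and 5.89 to 9.51 in WT, with Hba-a1 and Pf4 at 0 throughout, and the 4 that were tested were all called higher in Ebf1-KO over WT, where 40.8% of all genes were. The 6 hepatocyte markers summed to 1.80 or less, with Alb at 0. The part of these cell types in the Kit and Flt3 values was not tested.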

How the data were processed

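Per the file headers, the deposited RNA signal is reads over exons, 1 transcript kept per gene, scaled by the authors to 10 M mapped reads, and the deposited ATAC signal is tags per bound peak scaled to 10 M tags per library. Bowtie2 and HOMER (ATAC) and TopHat, HOMER, edgeR and DESeq2 (RNA) on mm10 are named in the submitters' processing notes, with no versions. Peak scores, distances to start sites, log2 fold changes and adjusted p-values in the other tables are the authors' deposited values. From the value of 1 read, 100% of values in the RNA table and in the EBF1-only and PAX5-only peak tables were whole reads within 0.1, and edgeR on these called 7379, 6401 and 5184 genes in the 3 comparisons. Peaks bound by both factors were kept out of edgeR. Exon reads per gene do not use strand as far as the sources used here say, so overlapping genes on opposite strands cannot be told apart.

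The test was limma (trend) on log2(value + 1) over all 9 libraries of an assay, with Benjamini-Hochberg adjustment over all features and calls at an adjusted p under 0.05. edgeR's filterByExpr on recovered reads left 12839 of 24072 genes, and at least 10 tags in all left 14365 of 14377 peaks. Named were the 2 receptors, all ligands and type III receptors, up to 4 called members with the largest change per other list and comparison, the 5 genes most like each receptor, genes starting within 500 kb, and the annotated peaks; some genes that this rule names are not reported here. Members and lists were chosen with earlier results of these data known. RNA libraries of 1 replicate number deviated together between genotypes (r = 0.12 to 0.44 over 9 pairs, against -0.37 to 0.03 for other pairs). The labels name no pairing, and depth followed the number too. Library 3 had 58.0, 89.1 and 63.1 M mapped reads in Ebf1-KO, Pax5-KO and WT, and library 2 had 27.3, 31.6 and 28.4 M. Pairing and depth cannot be told apart here. The main fit does not use the number. Values with the number as a block are given beside a result where they change its call or its count of calls in the pathway lists. Alternatives were other scalings (TMM, DESeq2 size factors, quantiles), pseudocounts of 0.5 and 5, no filter, edgeR and DESeq2 on recovered reads, only the 2 groups compared, the block, and each library left out. The method was tested on simulated data. Fits used edgeR 4.0.16, limma 3.58.1 and DESeq2 1.42.0 in R 4.3.3, and the permutation test SciPy 1.17.1. Sequences are from RefSeq's GRCm38.p6 assembly.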

Additional observations from a re-analysis of the deposited data

Results flagged for a closer look

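The change of Kit RNA from WT differed between the knockouts, with a rise in Ebf1-KO and a fall in Pax5-KO in every library, and the direct comparison of Ebf1-KO over Pax5-KO gave a log2 fold change of 3.51 (limma adjusted p = 1.06e-09). For Flt3 RNA, which rose in both, the direct comparison gave 1.32 (limma adjusted p = 1.61e-06). At the PAX5-only site of Flt3 the accessibility of Ebf1-KO over Pax5-KO differed by 0.93 on the log2 scale (limma adjusted p = 0.00480). Both knockouts are set against the same WT libraries. Groups of 3 libraries are too small for a test of single outlying libraries.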

How the results depend on the processing

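Kit and Flt3 RNA kept direction and call under all 19 alternatives: the log2 fold change of Kit was 1.75 to 2.12 in Ebf1-KO over WT, -1.89 to -1.40 in Pax5-KO over WT and 3.33 to 3.80 in Ebf1-KO over Pax5-KO, and that of Flt3 7.17 to 7.87, 5.85 to 6.53 and 1.24 to 1.40. The difference in log2 ratio of Flt3 to Kit was 5.73 to 6.07, 7.93 to 8.30 and -2.41 to -2.03. With the replicate block in RNA 8783, 8073 and 5622 genes were called in the 3 comparisons, against 7095, 5976 and 3962, and no call of Kit or Flt3 changed. ATAC libraries of 1 number did not deviate together (r = -0.05 to 0.11), and the block gave 7818, 7696 and 3136 called peaks, against 7817, 7708 and 3117, with no call of the 3 sites changed.

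The ATAC calls at the 3 sites depended on scaling, and the cause was not tested. In Ebf1-KO over WT, TMM, DESeq2 size factors (added after seeing the data), quantiles and edgeR each left 1 of the 3 sites called in place of 2, in Pax5-KO over WT a pseudocount of 5 called 2 in place of 1, and in Ebf1-KO over Pax5-KO quantiles called 0 in place of 1. An unchanged count of 1 in Pax5-KO over WT did not always mean the same site. With TMM the EBF1-only site of Flt3 lost its call as lower, and the PAX5-only site of Flt3 was called higher. Over 18 alternatives the first result was reversed in 3 and weaker in 1, and the second was stronger in 4. Leaving out single libraries gave 1 to 3, 1 to 2 and 1 to 1 sites. Called peaks in Pax5-KO over WT numbered 5035 with TMM, 4952 with size factors and 4363 with edgeR, which tested fewer peaks, against 7708. The EBF1-only site of Flt3 turned positive in Ebf1-KO over WT with TMM (0.29), size factors (0.35), edgeR (0.25) and quantiles (0.14), and in Pax5-KO over WT with TMM (0.04), size factors (0.03) and quantiles (0.13). The Kit site turned positive in Ebf1-KO over Pax5-KO without Ebf1-KO 2 (0.17; -0.68 to 0.17 over single libraries left out). The PAX5-only site of Flt3 stayed called in Ebf1-KO over WT throughout (0.89 to 1.95), and in Ebf1-KO over Pax5-KO missed the threshold with quantiles only (0.45, limma adjusted p = 0.0725). Values of the Kit site rest on 1 to 17 tags per library.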

Other observations

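A further EBF1-only peak lies inside Flt3, in intron 15 (chr5:147351906-147352176), and is annotated to Urad, whose start site is nearest. Per 10 M it had 3.89, 4.54 and 2.88 tags in the Ebf1-KO libraries, 13.8, 9.01 and 5.21 in those of Pax5-KO, and 9.15, 2.28 and 4.66 in WT, so Pax5-KO lay above Ebf1-KO and overlapped WT. With the scaling of the authors it was called higher in Pax5-KO over WT (log2 fold change 0.76, limma adjusted p = 0.0478) and lower in Ebf1-KO over Pax5-KO (-1.04, limma adjusted p = 0.0161). It was picked out after its values were seen.

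In the authors' lists of bound peaks at genes that differ between genotypes, the 2 PAX5-only sites fell on opposite sides. The Kit site was among 597 PAX5 peaks at genes higher in WT than in Pax5-KO, 8th by score, and the Flt3 site among 520 at genes lower in WT, 512th by score. The EBF1-only site of Flt3 was among 754 EBF1 peaks at genes lower in WT than in Ebf1-KO, 276th by score, and the intron 15 peak was in none of the 4 lists.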
